A study of Saccharomyces cerevisiae with 8 samples.

Results

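Nucleosomes were followed over phosphate genes of the yeast *S. cerevisiae*, the acid phosphatase genes *PHO5* (YBR093C) and *PHO3* (YBR092C) and the phosphate transporter gene *PHO84* (YML123C). *PHO5* and *PHO3* lie in tandem on chromosome 2, positions 427500 to 431800, both read right to left, with the *PHO5* start at about 430950. *PHO84* lies on chromosome 13 from 25833 down to 23924 in the study's transcript list, and the 800 bp upstream of the *PHO5* and *PHO84* starts, and the 450 bp between *PHO5* and *PHO3*, were taken as promoters. The genes were chosen by position and name, with earlier results of these data known. They are 3 genes, and the rows of the list at hand gave 1999 transcripts, of which 1614 were compared.

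The study asked what happens to nucleosomes when cells run short of histone H3. The H3 shutoff strain (DCB200.1) lacks *HHT1*, and its remaining H3 gene, *HHT2*, is driven by the *GAL1* promoter, which galactose turns on and dextrose turns off. The wildtype strain (YEF473A) keeps both H3 genes. Cultures grown at 30 degrees in galactose medium were moved to dextrose medium and sampled 3 hours later and at 0 hours, right at the shift. The groups are H3 shutoff at 3 hours, H3 shutoff at 0 hours, wildtype at 3 hours and wildtype at 0 hours, each with 2 libraries (H3 shutoff replicates 3 and 4, wildtype replicates B and C). Each strain is a single line, carbon source changed in both strains, phosphate was not a stated variable, and the H3 shutoff cells arrest in G2/M in dextrose. H3 loss and that arrest cannot be told apart here. After the 0-hour sample was taken, the remaining cells were diluted with more fresh dextrose medium. Carbon source, fresh medium and dilution therefore cannot be told apart between 0 and 3 hours.

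*PHO5* encodes the secreted acid phosphatase that cells make when phosphate runs low, *PHO3* a closely related acid phosphatase made when phosphate is plentiful, and *PHO84* the high-affinity transporter that brings phosphate into the cell. *PHO5* and *PHO84* are switched on by the factor Pho4 with its partner Pho2. The *PHO5* promoter is the textbook case of chromatin control: in phosphate-rich medium positioned nucleosomes cover it, a short accessible gap between them holds a Pho4 site, a second Pho4 site lies under the next nucleosome toward the gene, and induction removes these nucleosomes.

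Cells were fixed and digested with micrococcal nuclease (MNase), which cuts the DNA between nucleosomes, and fragments of single-nucleosome size were sequenced from both ends. The midpoint of a fragment, its read center, marks the middle of a nucleosome. All 8 libraries held 5000001 fragments, so every count here is a share of a fixed total, and an even loss over the whole genome would not show. Mean fragment length lay between 158 and 163 bp in the H3 shutoff libraries at 3 hours and 153 and 157 bp at 0 hours, and between 155 and 156 bp in the wildtype at 3 hours and 146 and 151 bp at 0 hours. A scan of the genome found 3 tiles of 100 bp, on chromosomes 2 and 14, where every H3 shutoff library had 0 read centers and each wildtype library 22 or more. A further 155 tiles of 200 bp held 3 or more read centers in both libraries of H3 shutoff replicate 4, wildtype C at 3 hours and wildtype B at 0 hours, with at most 2 in the others, and 0 of them lay at these genes. A lower count because fewer cells carry a nucleosome and one because it is recovered less from each cell cannot be told apart.

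The *PHO5* promoter held similar numbers of read centers in all 8 libraries, and 2 of its 4 nucleosomes changed differently in the strains. In the 800 bp upstream (chromosome 2, 430951 to 431750) there were 435 and 514 read centers in H3 shutoff replicates 3 and 4 at 3 hours, against 477 and 453 at 0 hours. The wildtype replicates B and C had 550 and 514 at 3 hours, against 485 and 442 at 0 hours. The H3 shutoff libraries at 3 hours overlapped those at 0 hours, and both wildtype libraries at 3 hours were above both at 0 hours. The log2 change was 0.03 ± 0.11 (SE) for H3 shutoff and 0.20 ± 0.11 for wildtype. The difference between the changes, -0.17 ± 0.16, did not pass (edgeR adjusted p = 0.465).

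**Figure D1:**
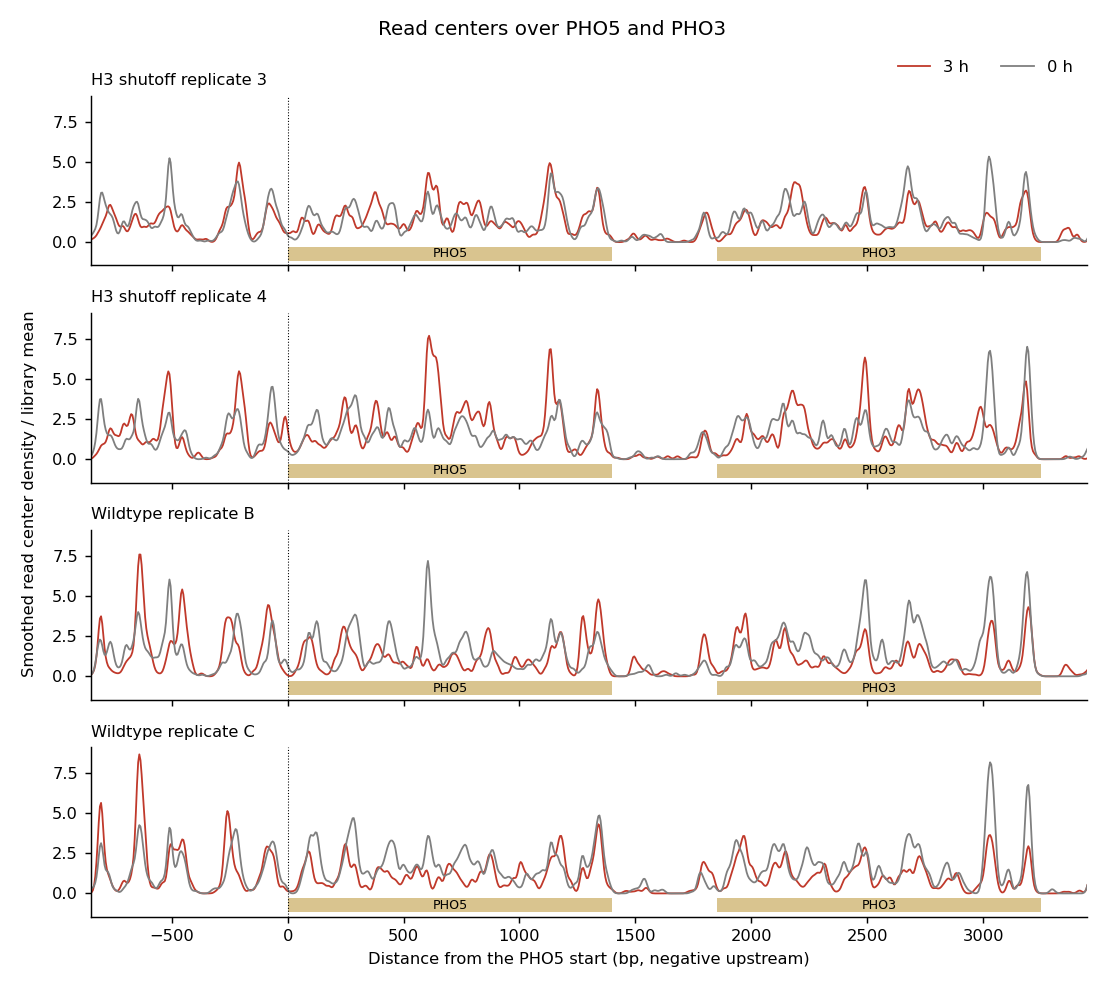
Read centers over *PHO5* and *PHO3* in each culture. The x axis gives the distance from the *PHO5* start in bp, negative upstream, and the y axis the density of read centers smoothed with a Gaussian of 10 bp SD and divided by the library mean. Red lines are 3 hours, grey lines 0 hours, and bars mark the genes at rounded lengths. The peak 605 bp inside *PHO5* is higher at 3 hours in both H3 shutoff cultures and lower at 3 hours in both wildtype cultures.

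Counting backwards from *PHO5*, the centers called in the 8 libraries pooled lay at -57, -215, -456 and -641 bp from the start (negative is upstream), with another at -806 bp, just past the 800 bp edge. Read centers were counted within 50 bp of each. A change was called at an adjusted p under 0.05 (edgeR's quasi-likelihood test, adjusted by the Benjamini-Hochberg method over all windows of the genome).

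The nucleosome at -57 bp, nearest the start, had 65 and 75 read centers in the H3 shutoff replicates 3 and 4 at 3 hours, against 88 and 92 at 0 hours. Wildtype B and C had 97 and 72 at 3 hours, against 70 and 86 at 0 hours. The nucleosome at -215 bp, on the gene side of the accessible gap, had 126 and 126 in H3 shutoff at 3 hours, against 100 and 90 at 0 hours, and 79 and 80 in wildtype at 3 hours, against 88 and 95 at 0 hours. At -215 bp both H3 shutoff cultures were higher and both wildtype cultures lower at 3 hours, but the difference between the log2 changes, 0.61 ± 0.29 (SE), did not pass (edgeR adjusted p = 0.139). At -57 bp it was -0.47 with an edgeR adjusted p of 0.28.

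Beyond the gap the strains' changes differed. At -456 bp the H3 shutoff replicates 3 and 4 had 31 and 37 read centers at 3 hours, against 57 and 48 at 0 hours. Wildtype B and C had 121 and 94 at 3 hours, against 50 and 66 at 0 hours. Each wildtype library at 3 hours was above all others and each H3 shutoff library at 3 hours below all others. The log2 change was -0.62 in H3 shutoff and 0.89 in wildtype, and the difference, -1.51 ± 0.35 (SE), passed (edgeR adjusted p = 0.00898). With windows of 150 bp it was -0.47 (edgeR adjusted p = 0.34), with DESeq2 it was -1.08 (adjusted p = 0.412), on fragments of 140 to 160 bp it was -1.64 (edgeR adjusted p = 0.0786), and without H3 shutoff replicate 3 it was -1.26 with an edgeR adjusted p of 0.0802.

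At -641 bp the H3 shutoff replicates 3 and 4 had 49 and 65 read centers at 3 hours, against 70 and 80 at 0 hours, and wildtype B and C had 155 and 161 at 3 hours, against 96 and 92 at 0 hours. Between the strains the log2 changes differed by -1.15 ± 0.30 (SE; edgeR adjusted p = 0.0143). The call was lost without H3 shutoff replicate 3 (edgeR adjusted p = 0.101) and without replicate 4 (0.0811), and with scaling by the trimmed mean of M values (TMM), where it was -0.75 (edgeR adjusted p = 0.137). Windows of 150 bp (-0.77, edgeR adjusted p = 0.0893) and DESeq2 (-0.72, adjusted p = 0.529) also lost it. At -806 bp there were 46 and 37 in H3 shutoff at 3 hours, against 71 and 74 at 0 hours, and 56 and 86 in wildtype at 3 hours, against 60 and 58 at 0 hours, with a difference of -1.06 (edgeR adjusted p = 0.0358). That call was lost without H3 shutoff replicate 3 (edgeR adjusted p = 0.0743), without H3 shutoff replicate 4 (0.254) and without wildtype C (0.185). It was also lost with TMM (-0.66, edgeR adjusted p = 0.192), with windows of 150 bp (-0.72, edgeR adjusted p = 0.136) and with DESeq2 (-0.62, adjusted p = 0.683). So 2 of the 4 promoter nucleosomes passed for a lower change in H3 shutoff and 0 of 4 for a higher one, where 16.3% and 4.64% of all windows did.

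**Figure D2:**
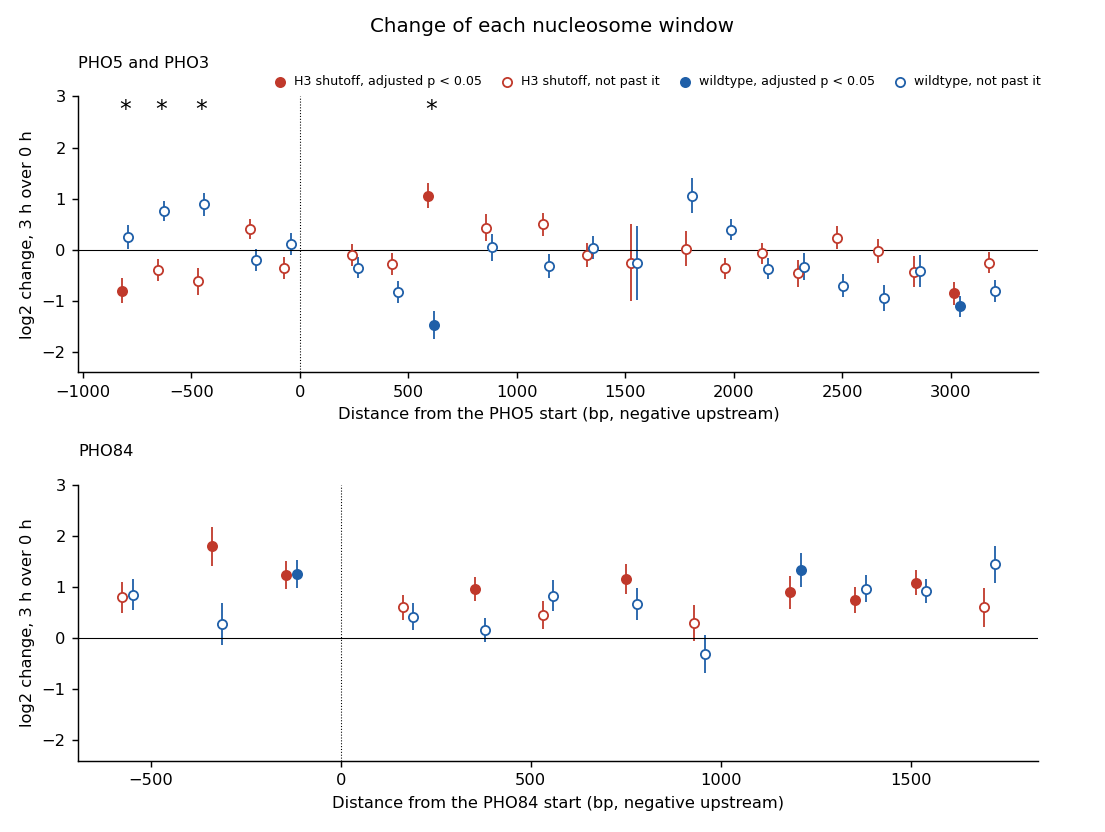
Log2 change of read centers at 3 hours over 0 hours in windows of 100 bp, by distance in bp from the *PHO5* start (upper panel) and the *PHO84* start (lower panel). Red is the H3 shutoff strain and blue the wildtype, bars are ± 1 SE of the edgeR fit, filled points passed an adjusted p of 0.05, and asterisks mark windows where the strains' changes differed at that threshold. The asterisks stand at 4 places, all at *PHO5*.

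These windows stand at fixed places, so a nucleosome that shifts can leave its window without being lost. The calls the authors made in each library give its place. The second promoter nucleosome was called at -211 and -211 bp in H3 shutoff replicates 3 and 4 at 3 hours, against -218 and -225 bp at 0 hours. In wildtype B and C it was called at -256 and -260 bp at 3 hours, against -219 and -224 bp at 0 hours. The strains' calls were interleaved at 0 hours and apart at 3 hours. By the study's test of read center positions within each culture, it was altered in wildtype B and C, its mean position lying 24.5 and 21.3 bp further from the gene at 3 hours. In H3 shutoff it lay 7.1 bp closer to the gene in replicate 3, which was classed unchanged, and 19.5 bp closer in replicate 4, which fell between the classes. These classes cover counting error within 1 culture.

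The third promoter nucleosome was called at -518 and -516 bp in H3 shutoff replicates 3 and 4 at 3 hours, against -511 and -445 bp at 0 hours. In wildtype B and C it was called at -457 and -454 bp at 3 hours, against -511 and -462 bp at 0 hours. The strains were apart at 3 hours and mixed at 0 hours. In H3 shutoff replicate 4 the call at -516 bp held 115 read centers within 50 bp at 3 hours, against 44 in the paired call at -445 bp at 0 hours, which put it in the study's altered and retained classes. In H3 shutoff replicate 4 the fourth was called at -678 bp at 3 hours, against -645 bp at 0 hours, and replicate 3 had no call between -518 and -768 bp at 3 hours nor between -511 and -803 bp at 0 hours. In wildtype B and C the fourth stood at -639 and -641 bp at 3 hours, against -665 and -640 bp at 0 hours.

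**Figure D3:**
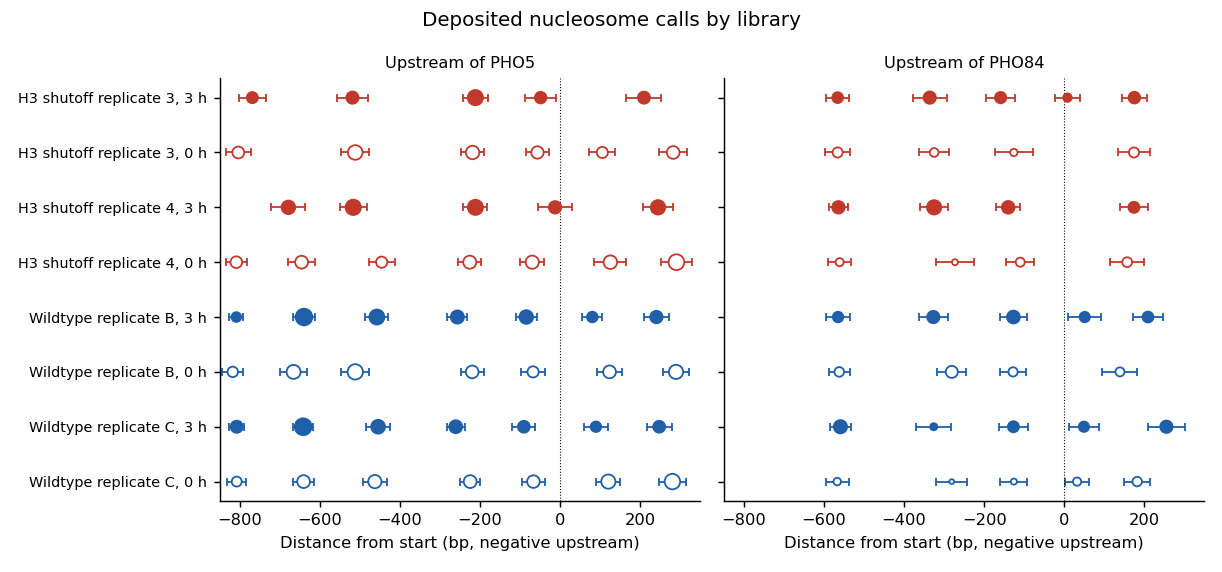
Deposited nucleosome calls upstream of *PHO5* and *PHO84* in each library. The x axis is the distance from the start in bp, each circle is 1 call with its area set by its read centers, horizontal bars are ± 1 SD of the read center positions, filled circles are 3 hours and open circles 0 hours, with H3 shutoff in red and wildtype in blue. At 3 hours the third call upstream of *PHO5* stands at -518 and -516 bp in H3 shutoff and at -457 and -454 bp in wildtype.

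The median SD of read centers within the *PHO5* promoter's calls, a measure of how sharply nucleosomes are placed, was 36.5 and 38.0 bp in H3 shutoff replicates 3 and 4 at 3 hours, against 29.1 and 30.9 bp at 0 hours. In wildtype B and C it was 26.3 and 26.6 bp at 3 hours, against 31.3 and 27.9 bp at 0 hours. The change averaged 7.28 ± 0.186 bp in H3 shutoff and -3.14 ± 2.64 bp in wildtype (SD, n = 2 cultures each). The exact two-sided permutation test over the 4 cultures gave p = 0.333, the smallest 2 cultures against 2 allow, so no such comparison could pass. Over the genome the median SD was 37.4 and 37.2 bp in H3 shutoff at 3 hours, against 33.2 and 32.7 bp at 0 hours, and 28.0 and 28.1 bp in wildtype at 3 hours, against 27.5 and 27.5 bp at 0 hours. The coefficient of variation of the promoter's read center profile was 0.734 and 0.837 in H3 shutoff at 3 hours, against 0.769 and 0.757 at 0 hours, and 1.01 and 1.11 in wildtype at 3 hours, against 0.829 and 0.874 at 0 hours. Both wildtype profiles were more uneven at 3 hours, with the same smallest p of 0.333 in the exact permutation test.

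The stretch between the nucleosomes at -215 and -456 bp was the widest gap of the promoter, 241 bp between pooled centers. Within 50 bp of its middle, at -335 bp, each library held 4 to 11 read centers. Coverage there, as a share of the genome mean, was 0.638 and 0.529 in H3 shutoff at 3 hours, against 0.585 and 0.609 at 0 hours. It was 0.967 and 0.896 in wildtype at 3 hours, against 0.416 and 0.508 at 0 hours. Both wildtype libraries at 3 hours were above the other 6. In the same libraries the second nucleosome was called closest to the gap, as given above.

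Over the *PHO5* gene the strains' changes differed. Across the region (chromosome 2, 429551 to 430950) there were 909 and 1145 read centers in H3 shutoff replicates 3 and 4 at 3 hours, against 817 and 943 at 0 hours, and 697 and 707 in wildtype B and C at 3 hours, against 874 and 1045 at 0 hours. At 3 hours both H3 shutoff libraries were above both wildtype libraries. The log2 change of 0.22 ± 0.09 (SE) in H3 shutoff did not pass (edgeR adjusted p = 0.125), and in wildtype the gene fell by 0.45 (SE 0.09, edgeR adjusted p = 0.0307). The difference between the changes, 0.66 ± 0.13, passed (edgeR adjusted p = 0.0142). The wildtype call was lost without replicate C (edgeR adjusted p = 0.0598) and in the fit that did not pair the libraries of a culture as a block (0.0704), with the 3-hour wildtype libraries exchanged (0.0873) and with DESeq2 (0.0747). The difference kept its call under all 11 alternatives.

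**Figure D4:**
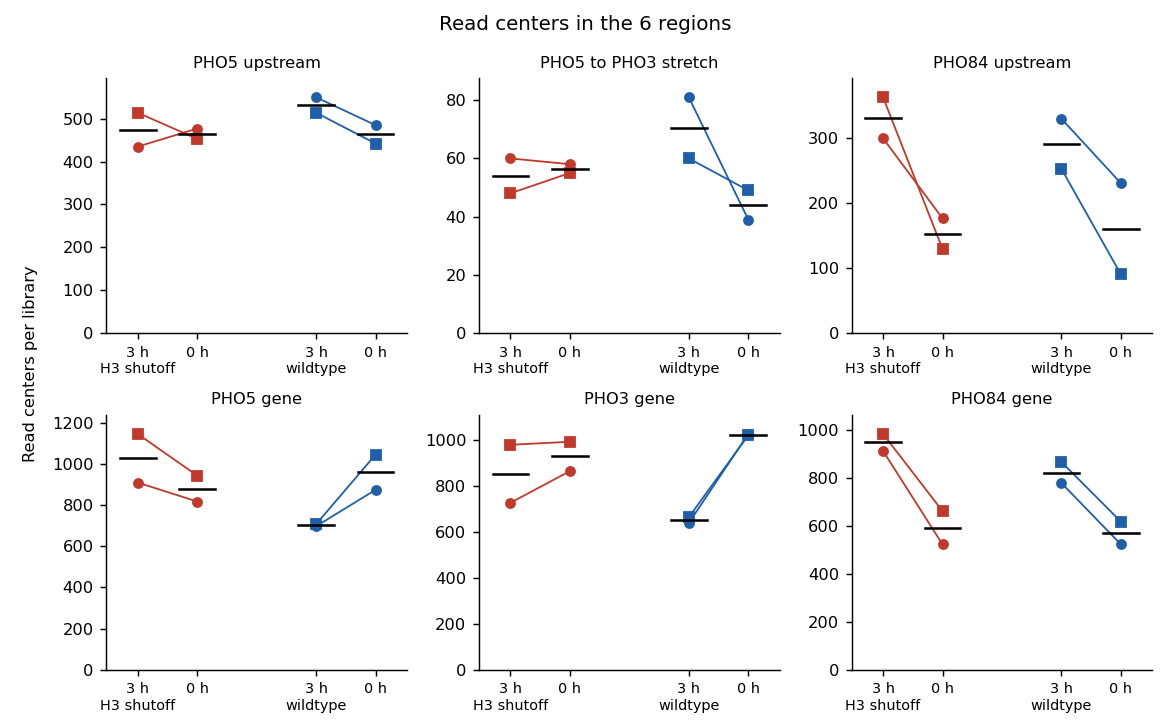
Read centers per library in the promoter and gene regions. Red is H3 shutoff (circle replicate 3, square replicate 4) and blue is wildtype (circle B, square C), lines join the libraries of a culture, 3 hours stands left of 0 hours, and black bars are means of 2 libraries. The *PHO5* gene has 909 and 1145 read centers in H3 shutoff at 3 hours and 697 and 707 in wildtype at 3 hours, and both *PHO84* panels are higher at 3 hours in all 4 cultures.

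The difference was called for 1 nucleosome of the gene. Centered at 430345, 605 bp inside the gene, it had 132 and 212 read centers in H3 shutoff replicates 3 and 4 at 3 hours, against 85 and 77 at 0 hours. In wildtype B and C it had 37 and 46 at 3 hours, against 138 and 95 at 0 hours. It rose in H3 shutoff by 1.06 ± 0.24 on the log2 scale (SE, edgeR adjusted p = 0.00564), fell by 1.47 in wildtype (edgeR adjusted p = 0.0163), and the difference of 2.53 ± 0.37 (edgeR adjusted p = 0.00187) passed under all 11 alternatives, with values from 2.05 to 2.96. The rise in H3 shutoff was 0.63 without replicate 4, the change in wildtype was -1.04 without replicate B, and both calls were lost there. With DESeq2 the wildtype change was -1.54 and its call was lost (adjusted p = 0.152). The authors' calls put this nucleosome in wildtype B at 603 bp at 0 hours, and the 3-hour call paired with it had its center at 430394. In wildtype C the 0-hour call lay at 605 bp, and its paired 3-hour call had its center at 430255. Both H3 shutoff cultures had a 3-hour call close to the same place, at 430344 and 430342.

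The first pooled windows inside *PHO5*, at 253 and 437 bp, showed less, but no pooled window lay between -57 and 253 bp. There the authors' calls differed between the strains at 3 hours. The first call inside the gene lay at 106 and 126 bp in H3 shutoff replicates 3 and 4 at 0 hours. In wildtype B and C it lay at 124 and 121 bp at 0 hours and at 81 and 90 bp at 3 hours. In H3 shutoff at 3 hours it lay at 210 and 245 bp, with the next call toward the promoter at -48 and -12 bp. At 253 bp there were 71 and 102 read centers in H3 shutoff at 3 hours, against 73 and 114 at 0 hours, and 86 and 81 in wildtype at 3 hours, against 95 and 119 at 0 hours. At 437 bp there were 55 and 63 in H3 shutoff at 3 hours, against 64 and 80 at 0 hours, and 50 and 50 in wildtype at 3 hours, against 81 and 98 at 0 hours. Neither difference passed (edgeR adjusted p = 0.571 and 0.195). The other 3 windows of the gene, at 874, 1136 and 1338 bp, had 52 to 161 read centers in H3 shutoff and 47 to 116 in wildtype and were not called in any comparison. So 1 of the 6 windows of the gene passed for a higher change in H3 shutoff and 0 for a lower one, beside 4.64% and 16.3% of all windows.

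The stretch between the end of *PHO5* and the start of *PHO3*, which serves as the *PHO3* promoter, was the emptiest of the 6 regions. Over 450 bp (chromosome 2, 429101 to 429550) it held 60 and 48 read centers in H3 shutoff at 3 hours, against 58 and 55 at 0 hours, and 81 and 60 in wildtype at 3 hours, against 39 and 49 at 0 hours. Per bp that was 0.322 and 0.258 of the library mean in H3 shutoff at 3 hours and 0.435 and 0.322 in wildtype at 3 hours, and over the *PHO5* promoter the same measure was 1.31 to 1.66 at 3 hours. Its center had coverage of 0.056 to 0.131 of the genome mean. The difference between the strains' changes, -0.74 ± 0.46 on the log2 scale, was not detectable at this depth (edgeR adjusted p = 0.265). The window next to the *PHO3* start, at 429154, had 39 and 33 in H3 shutoff at 3 hours, against 32 and 39 at 0 hours, and 48 and 48 in wildtype at 3 hours, against 20 and 26 at 0 hours. Both wildtype cultures were higher at 3 hours, but that change, 1.06, did not pass (edgeR adjusted p = 0.115).

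Over the *PHO3* gene (chromosome 2, 427701 to 429100) the wildtype fell. There were 728 and 981 read centers in H3 shutoff replicates 3 and 4 at 3 hours, against 866 and 994 at 0 hours, and 640 and 665 in wildtype B and C at 3 hours, against 1028 and 1022 at 0 hours. The wildtype libraries at 3 hours were below all others. The log2 change was -0.13 ± 0.09 in H3 shutoff (SE, edgeR adjusted p = 0.324) and -0.65 ± 0.09 in wildtype (edgeR adjusted p = 0.0127), and the difference of 0.52 ± 0.13 passed (edgeR adjusted p = 0.0244). The difference was lost without H3 shutoff replicate 4 (0.40, edgeR adjusted p = 0.187), without the culture block that pairs the libraries (0.53, edgeR adjusted p = 0.0661) and with DESeq2 (0.59, adjusted p = 0.111). The wildtype pairing rests on the replicate letters, and with the 3-hour wildtype libraries exchanged between cultures both the wildtype fall (edgeR adjusted p = 0.0582) and the difference (0.0669) were lost.

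Of the 8 *PHO3* windows 1 was called, at 427920 near the end of the gene, where 22.0% of all windows fell in H3 shutoff and 1.20% in wildtype. It had 46 and 78 read centers in H3 shutoff at 3 hours, against 97 and 125 at 0 hours, and 64 and 75 in wildtype at 3 hours, against 141 and 160 at 0 hours. It fell in both strains, by 0.86 on the log2 scale in H3 shutoff (edgeR adjusted p = 0.00935) and by 1.11 in wildtype (edgeR adjusted p = 0.0165), and the difference of 0.26 did not pass (edgeR adjusted p = 0.566). The H3 shutoff call was lost with TMM scaling (-0.52, edgeR adjusted p = 0.155), without replicate 3 (-0.68, edgeR adjusted p = 0.182) and without replicate 4 (-1.07, edgeR adjusted p = 0.0741). DESeq2 (-0.50, adjusted p = 0.59), fragments of 140 to 160 bp (-0.75, edgeR adjusted p = 0.0886) and windows of 150 bp (-0.55, edgeR adjusted p = 0.0801) also lost it. The wildtype call was lost without the culture block (edgeR adjusted p = 0.0537) and with DESeq2 (-1.18, adjusted p = 0.389). The first windows inside *PHO3*, 123 and 293 bp from its approximate start, had 55 to 110 read centers in H3 shutoff and 72 to 108 in wildtype, and neither was called in any comparison. The other 5 had 36 to 140 in H3 shutoff and 30 to 128 in wildtype and were not called, though the difference at 428458, 0.94, had an edgeR adjusted p of 0.05.

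The acid phosphatase genes are close copies of each other and of *PHO11* (YAR071W) on chromosome 1, and the aligner at its default settings reports a single place for a read that fits several. Counts inside these 3 genes are therefore uncertain where their sequence is shared. *PHO11*, another acid phosphatase of the phosphate pathway, had 1193 and 1009 read centers over its gene in H3 shutoff at 3 hours, against 935 and 867 at 0 hours, and 818 and 780 in wildtype at 3 hours, against 835 and 1134 at 0 hours. Its difference between the changes was 0.57 ± 0.16 on the log2 scale (SE, edgeR adjusted p = 0.0314), beside 0.66 for *PHO5* and 0.52 for *PHO3*. In the 800 bp upstream of *PHO11* the difference was -0.58 (edgeR adjusted p = 0.129). Of the 4 other pathway genes in the transcript list, only *PHO11* was compared, since the listed positions of the other 3 on chromosome 10 were offset from the fragments.

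At *PHO84* read centers rose in both strains, over the promoter and over the gene. The 800 bp upstream (chromosome 13, 25834 to 26633) held 299 and 362 read centers in H3 shutoff replicates 3 and 4 at 3 hours, against 176 and 129 at 0 hours. In wildtype B and C they held 329 and 252 at 3 hours, against 230 and 90 at 0 hours. All 4 libraries at 3 hours were above all 4 at 0 hours. The promoter rose by 1.12 ± 0.23 on the log2 scale in H3 shutoff (SE, edgeR adjusted p = 0.0141) and by 0.94 ± 0.23 in wildtype (edgeR adjusted p = 0.0459). The difference of 0.18 ± 0.33 did not pass (edgeR adjusted p = 0.727). The H3 shutoff call was lost without replicate 4 (0.76, edgeR adjusted p = 0.101) and the wildtype call without replicate C (0.52, edgeR adjusted p = 0.0665) and without the culture block (0.86, edgeR adjusted p = 0.132). With the 3-hour wildtype libraries exchanged between cultures both calls were lost (edgeR adjusted p = 0.0976 in H3 shutoff and 0.182 in wildtype).

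The *PHO84* gene (23924 to 25833) had 913 and 984 read centers in H3 shutoff at 3 hours, against 523 and 662 at 0 hours, and 779 and 867 in wildtype at 3 hours, against 523 and 618 at 0 hours. Here too every library at 3 hours was above every library at 0 hours. It rose by 0.69 ± 0.10 in H3 shutoff (SE, log2 scale, edgeR adjusted p = 0.00432), a call that held under all 11 alternatives, and by 0.53 ± 0.10 in wildtype (edgeR adjusted p = 0.0268), which was lost without the culture block (edgeR adjusted p = 0.0539), with the 3-hour wildtype libraries exchanged (0.0873) and with DESeq2 (0.0532). The difference, 0.15 ± 0.14, did not pass (edgeR adjusted p = 0.447). Per bp the gene held 1.15 and 1.24 times the library mean in H3 shutoff at 3 hours, against 0.661 and 0.837 at 0 hours, and 0.985 and 1.10 in wildtype at 3 hours, against 0.661 and 0.781 at 0 hours.

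**Figure D5:**
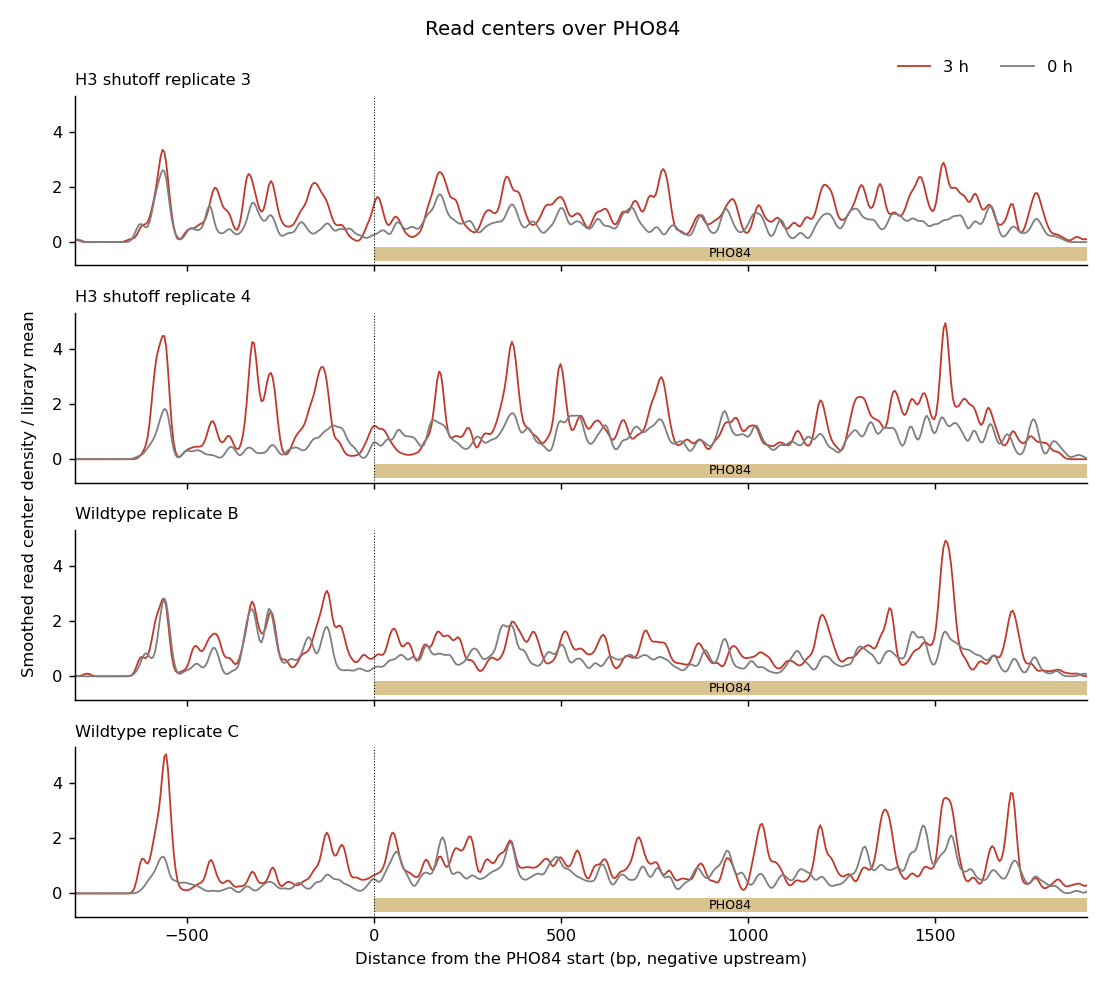
Read centers over *PHO84* in each culture. The x axis gives the distance from the *PHO84* start in bp, negative upstream, and the y axis the density of read centers smoothed with a Gaussian of 10 bp SD and divided by the library mean, with 3 hours in red and 0 hours in grey. The 3-hour line lies above the 0-hour line over most of the gene, and the peak near -326 bp is low in both wildtype C libraries.

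Over the 6 regions, 2 rose and 0 fell in H3 shutoff, where 6.72% and 8.06% of all 3227 regions did. In wildtype 2 rose and 2 fell, where 1.49% and 2.91% of all regions did. The difference between the changes was above 0 in 2 regions, *PHO5* and *PHO3*, and below 0 in none (8.27% and 9.64% of all regions). The median of the 6 was 0.122 in H3 shutoff and 0.365 in wildtype, beside -0.05 and 0.02 over all regions.

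The nucleosome next to the *PHO84* start, at -129 bp, had 60 and 82 read centers in H3 shutoff replicates 3 and 4 at 3 hours, against 20 and 41 at 0 hours, and 86 and 61 in wildtype B and C at 3 hours, against 44 and 19 at 0 hours. It rose by 1.24 in H3 shutoff (log2 scale, edgeR adjusted p = 0.00439) and by 1.26 in wildtype (edgeR adjusted p = 0.0302), and the difference was -0.01 with an edgeR adjusted p of 0.983. It was called at -159 and -140 bp in H3 shutoff at 3 hours, against -126 and -110 bp at 0 hours, and at -127 and -127 bp in wildtype at 3 hours, against -128 and -126 bp at 0 hours. The H3 shutoff rise was lost without replicate 3 (edgeR adjusted p = 0.0919), and the wildtype rise without the culture block (edgeR adjusted p = 0.116), with the 3-hour wildtype libraries exchanged (0.0579), on fragments of 140 to 160 bp (0.112) and with DESeq2 (0.764).

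The next nucleosome upstream, at -326 bp, differed between cultures of a strain. It had 64 and 93 read centers in H3 shutoff replicates 3 and 4 at 3 hours, against 35 and 11 at 0 hours. Wildtype B had 70 at 3 hours, against 68 at 0 hours, and wildtype C had 16 at 3 hours, against 8 at 0 hours. The wildtype cultures thus differed from each other at both times, and wildtype C at 3 hours was far below wildtype B at 0 hours. It rose by 1.80 ± 0.39 in H3 shutoff (SE, log2 scale, edgeR adjusted p = 0.00377), but by 0.87 without replicate 4 (edgeR adjusted p = 0.256), and the call was lost without the culture block (1.77, edgeR adjusted p = 0.062). Between the strains the changes differed by 1.51, which did not pass (edgeR adjusted p = 0.0666).

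At -562 bp there were 61 and 90 read centers in H3 shutoff at 3 hours, against 51 and 35 at 0 hours, and 57 and 93 in wildtype at 3 hours, against 50 and 32 at 0 hours. Every culture had more at 3 hours, and neither strain's change passed (edgeR adjusted p = 0.0613 and 0.146). Its call lay between -559 and -567 bp in all 8 libraries. Farther out, in the last 150 bp of the 800, the libraries held 0 to 2 read centers each. At the gene side, the 50 bp either way of a point 24 bp inside the start held 43 and 34 in H3 shutoff at 3 hours, against 15 and 27 at 0 hours, and 44 and 49 in wildtype at 3 hours, against 19 and 34 at 0 hours.

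Inside *PHO84*, 5 of 9 windows rose in H3 shutoff and 1 of 9 in wildtype, where 5.20% and 0.504% of all windows did, and none fell in either strain. At 177 bp there were 75 and 61 read centers in H3 shutoff at 3 hours, against 47 and 42 at 0 hours, and 57 and 49 in wildtype at 3 hours, against 34 and 45 at 0 hours, and neither change passed (edgeR adjusted p = 0.0813 and 0.376). At 367 bp there were 68 and 99 in H3 shutoff at 3 hours, against 35 and 50 at 0 hours, a rise of 0.97 (log2 scale, edgeR adjusted p = 0.00667), and 54 and 55 in wildtype at 3 hours, against 56 and 42 at 0 hours. The difference at 367 bp, 0.81, did not pass (edgeR adjusted p = 0.0898). The other windows that rose in H3 shutoff, at 765, 1198, 1369 and 1528 bp, did so by 0.75 to 1.16. DESeq2 lost the H3 shutoff calls at 367, 765, 1198 and 1369 bp (adjusted p = 0.0908, 0.0821, 0.226 and 0.229). Those at 1198 and 1369 bp were lost with the 3-hour wildtype libraries exchanged (edgeR adjusted p = 0.078 and 0.0693). On fragments of 140 to 160 bp those at 1198 and 1528 bp were lost (edgeR adjusted p = 0.243 and 0.197). The window that rose in wildtype, at 1198 bp, did so by 1.34 (edgeR adjusted p = 0.0492), a call lost under 8 of 11 alternatives. They were the fits without the culture block (edgeR adjusted p = 0.0654), with the 3-hour wildtype libraries exchanged (0.0697) and without the minimum count (0.0522). Fragments of 140 to 160 bp (edgeR adjusted p = 0.0727), windows of 150 bp (0.0902) and DESeq2 (adjusted p = 0.837) also lost it. So did leaving out replicate B, with a rise of 1.33, or H3 shutoff replicate 3, with 1.34. Each of the 5 calls in H3 shutoff was lost without replicate 3 and without replicate 4, with values of 0.67 to 1.62 that all stayed above 0.

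Over both loci the pooled calls gave 33 windows, 21 at *PHO5* and *PHO3* and 12 at *PHO84*, and all 33 passed the minimum of 80 read centers. In H3 shutoff 8 rose and 2 fell, where 5.20% and 22.0% of all 60321 windows did. The median change of the 33 was 0.23 on the log2 scale beside -0.35 over all windows, and TMM scaling put the median of all windows at -0.02. In wildtype 2 rose and 2 fell, where 0.504% and 1.20% of all windows did. The difference between the changes was above 0 for 1 window and below 0 for 3 of the 33, where 4.64% and 16.3% of all windows were, so neither count was above the share over the genome.

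At 0 hours, before H3 was depleted, none of the 33 windows differed between the H3 shutoff strain and the wildtype (edgeR's quasi-likelihood test, 1 window at an unadjusted p under 0.05, and 0 calls with DESeq2). Over all windows 0.00334% were called. The window with the unadjusted p under 0.05 was the one 605 bp inside *PHO5* (log2 difference -0.52, edgeR adjusted p = 0.782).

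In the study's own classes, 11 of 32 compared calls of these genes had an altered position in H3 shutoff replicate 3 and 17 of 33 in replicate 4, beside 37.1% and 41.0% of all compared calls in those cultures. In wildtype B 13 of 35 were altered and in wildtype C 16 of 37, beside 10.6% and 9.64% of all. Inside the *PHO5* gene 3 of 6 and 5 of 7 calls were altered in H3 shutoff replicates 3 and 4, against 6 of 8 in each wildtype culture. Neighboring 0-hour calls could be paired with the same 3-hour call, and such pairs are among those counted as altered. Inside *PHO5* this happened at 430740 in H3 shutoff replicate 3 and at 430082 and 430705 in replicate 4. It happened at 430085 and 430394 in wildtype B and at 430255 in wildtype C. In the *PHO84* gene 5 of 9 and 2 of 9 were altered in H3 shutoff, against 4 of 9 and 7 of 11 in wildtype. When only calls with centers within 50 bp of each other were compared, 2 of 23 and 9 of 24 were altered in H3 shutoff replicates 3 and 4, beside 13% and 16.8% of all such calls, and 6 of 26 in each of wildtype B and C, beside 3.38% and 2.71%.

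By read centers within 50 bp of each call, 3 of 32 were reduced or retained in H3 shutoff replicate 3 (4.09% of all), 5 of 33 in replicate 4 (7.01%), 3 of 35 in wildtype B (3.92%) and 2 of 37 in wildtype C (0.744%). All in replicate 3 were retained, the class for more read centers at 3 hours. They included the *PHO3* call at 428641, paired with a 3-hour call at 428763, and the *PHO84* call at 24729, paired with 24628. Such pairs compare counts at different places. In wildtype B all 3 were reduced, 2 of them in *PHO3* and 1 the call 603 bp inside *PHO5*, with 44 read centers at 3 hours against 137 at 0 hours. The retained calls of replicate 4 included a *PHO84* promoter call at -325 bp with 93 read centers at 3 hours, against 12 in the paired 0-hour call at -273 bp. Another was the one 604 bp inside *PHO5*, with 212 against 77.

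Fragments centered in the *PHO5* to *PHO3* stretch were shorter than their library's mean in all 8 libraries, with differences of -8.09 to -3.75 bp. The *PHO5* and *PHO3* genes lay within 2.38 bp of the library mean. Over the *PHO84* promoter the mean fragment length at 3 hours minus that at 0 hours was -4.98 and 7.08 bp in H3 shutoff replicates 3 and 4 and 8.33 and 12.8 bp in wildtype B and C (exact permutation test over cultures, p = 0.333). Fragment length differed between libraries, and its part in the counts was not tested beyond the fit on fragments of 140 to 160 bp.

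The upstream regions most like the *PHO5* promoter in their pattern over the 8 libraries, by the Euclidean distance of log2 (read centers + 1) around its mean, were those of *ROM2* (YLR371W), *MLH2* (YLR035C) and YAL026C-A, at distances of 0.176, 0.183 and 0.189 with a median of 0.623 over 1613 regions. Those most like the *PHO84* promoter were *IZH3* (YLR023C) at 0.345, *GTR1* (YML121W) at 0.418 and *SOK2* (YMR016C) at 0.631, with a median of 1.932. The *GTR1* region shares 640 bp with the *PHO84* promoter and so counts many of the same fragments. *IZH3* had 291 and 282 read centers in H3 shutoff at 3 hours, against 145 and 96 at 0 hours, and 303 and 213 in wildtype at 3 hours, against 178 and 77 at 0 hours. Its libraries at 0 hours stood in the same order as those of *PHO84*, a likeness it was picked for.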

How the data were processed

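MNase-seq libraries were paired-end. The authors aligned them to sacCer1 with Bowtie 0.12.6 at default settings (the version is in the submitters' processing notes), kept fragments of 100 to 200 bp and drew equal numbers. They deposited fragment positions and, per library, called nucleosomes with counts of read centers. Positions are those of the files.

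Read centers were counted within 50 bp of 62436 centers called here in the pooled libraries, and over regions of the study's transcript list, of which 1999 rows were at hand. *PHO5* and *PHO3* are not among them and used rounded lengths of 1400 bp and a spacing of 450 bp. Windows needed 80 read centers over 8 libraries, or 40 over 4 at 0 hours. edgeR 4.0.16 in R 4.3.3 was fitted with equal library sizes, the culture as a block and a change per strain (quasi-likelihood test, Benjamini-Hochberg). DESeq2 1.42.0 was an alternative. SEs are |log2 change| divided by the root of F. The step was tested on simulated data. Nothing says how far the cultures were separate beyond their labels, so p-values measure the spread between these libraries.

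The libraries of a culture share its replicate label. Deviations at 3 and 0 hours correlated with r = 0.33 in H3 shutoff and -0.037 in wildtype over 60321 windows. In wildtype only the letters give the pairing. The 155 tiles of 200 bp described above were shared by wildtype B at 0 hours and wildtype C at 3 hours, which carry different letters. Whether the 3-hour wildtype libraries were exchanged was not tested beyond the fit with them exchanged.

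The study's classes compared calls overlapping by 30 bp or more with over 5 read centers each. A corrected p under 0.01 gave altered, reduced or retained, and over 0.2 unchanged. Named nucleosomes were those in the *PHO5* and *PHO84* promoters, the first 2 pooled windows in each gene, and any with an adjusted p under 0.05 between the strains. Others were named after their values were seen where called. The members and lists were chosen with earlier results of these data known. RefSeq's R64 table gave gene names only.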

Additional observations from a re-analysis of the deposited data

Results flagged for a closer look

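The changes of 7 results differed between the strains by the test of the difference itself. The nucleosome 605 bp inside *PHO5* differed by 2.53 (log2, H3 shutoff change minus wildtype change, edgeR adjusted p = 0.00187). The nucleosomes at -456, -641 and -806 bp from the *PHO5* start differed by -1.51, -1.15 and -1.06 (edgeR adjusted p = 0.00898, 0.0143 and 0.0358). The *PHO5* gene differed by 0.66, the *PHO3* gene by 0.52 and the *PHO11* gene by 0.57 (edgeR adjusted p = 0.0142, 0.0244 and 0.0314). These 7 are not separate results, since the nucleosome at 605 bp lies inside the *PHO5* gene and the acid phosphatase genes share sequence. The calls at -456, -641 and -806 bp and of the *PHO3* gene were lost under some alternatives, as given above. *PHO11* was not followed under the alternatives. With 2 libraries a group, no single library was tested for standing apart. What lies behind these differences was not tested.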

How the results depend on the processing

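Of 33 windows, 10 were called in H3 shutoff, 4 in wildtype and 4 in the difference. DESeq2 called 4, 0 and 1. Leaving out a culture gave 1 to 13 in H3 shutoff, 3 to 9 in wildtype and 2 to 8 in the difference. In wildtype, 1 was called with no replicate block and 2 with fragments of 140 to 160 bp. In the difference, 8 were called with TMM scaling and 1 with windows of 150 bp. Of 6 regions, 2, 4 and 2 were called. With the wildtype 3-hour libraries exchanged between cultures it was 1, 0 and 1, with no replicate block 2, 1 and 1, and with DESeq2 2, 1 and 1. Leaving out a culture gave 1 to 2 in H3 shutoff, 3 to 4 in wildtype and 1 to 2 in the difference. The block, which pairs the libraries of a culture, therefore carries part of these calls. Calls fell over all 3227 regions too. In H3 shutoff the main fit called 217 up and 260 down, the exchanged fit 16 and 10, no replicate block 129 and 162, and DESeq2 54 and 14. In wildtype these counts were 48 and 94, 1 and 4, 19 and 34, and 1 and 21. For the difference they were 267 above 0 and 311 below, 55 and 56, 163 and 177, and 52 and 14.

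Altered calls numbered 28 in H3 shutoff and 29 in wildtype, and 11 and 12 when centers had to lie within 50 bp. Benjamini-Hochberg correction gave 45 in wildtype, and 15 and 22 in H3 shutoff replicates 3 and 4. With it 59.3% and 64.2% of all compared calls were altered in H3 shutoff, and 25.3% and 23.0% in wildtype B and C. Reduced or retained calls numbered 8 and 5, with 2 in H3 shutoff within 50 bp and, with Benjamini-Hochberg correction, 16 in H3 shutoff and 19 in wildtype. With that correction 19.1% and 27.0% of all compared calls were reduced or retained in H3 shutoff replicates 3 and 4. In wildtype B and C 19.6% and 3.35% were. The difference of the *PHO5* promoter's spread changes was 10.4 bp, and 7.09 bp on fragments of 140 to 160 bp. No called change reversed under any alternative run. Over all windows, H3 shutoff calls were 3137 up and 13294 down, but 6382 and 4565 with TMM, and 957 and 180 with DESeq2. Calls of the difference were 2801 above 0 and 9830 below, but 5478 and 3587 with TMM, and 742 and 26 with DESeq2. Wildtype calls were 304 up and 722 down, but 7 and 37 with DESeq2 and 106 and 309 with no replicate block. DESeq2 gave no adjusted p for the wildtype change of the *PHO84* promoter. Of the values of single nucleosomes and regions, 228 kept their call or stayed within the spread, 83 lost the call and 4 moved. The causes were not tested. Depth limits the *PHO5* to *PHO3* stretch, with 39 to 81 read centers a library.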
